A study of Mus musculus with 4 samples.

Results

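The HDAC family was followed here through 10 of its genes, Hdac1, Hdac2, Hdac3, Hdac4, Hdac5, Hdac6, Hdac7, Hdac8, Hdac10 and Hdac11, taken by symbol from the 55401 genes of the count files. RNA was sequenced from splenic B220+ B cells in 4 libraries, 2 from NSD1B WT mice (Mb1-Cre+ NSD1+/+) and 2 from NSD1B KO mice (Mb1-Cre+ NSD1 fl/fl), and the comparison asked which genes change when the H3K36 methyltransferase NSD1 is removed from B cells. Mb1-Cre, also called CD79a-Cre, is active in the B lineage and was carried by both genotypes, and the floxed allele loses exons 6 to 8 of Nsd1 where Cre is active. All mice were on the C57BL/6J background, the controls were littermates, and the methods give male and female mice of 7 to 9 weeks for the experiments. The labels name no treatment, and nothing in them tells if different mice gave the 2 libraries of a genotype, so the p-values below measure only the spread between these libraries, which may be technical.

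Histone deacetylases remove acetyl groups from lysines of histones and other proteins, and the genes described here encode the zinc-dependent enzymes. Class I enzymes are mostly nuclear and work as catalytic subunits of corepressor complexes, class IIa enzymes shuttle between nucleus and cytoplasm with MEF2 factors and 14-3-3 proteins, class IIb enzymes act largely in the cytoplasm, and HDAC11 stands alone in class IV. In B cells, complexes with HDAC1, HDAC2 and HDAC3 are known as partners of the factors that set developmental gene programmes.

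The libraries held 6769118 to 7566834 counts on genes and 12383 to 13084 genes with a count. The targeted gene, Nsd1, had 497 and 480 counts in NSD1B WT and 284 and 280 in NSD1B KO, and its log2 fold change was -0.74 (SE 0.11, n = 2 per genotype). The counts cover whole genes, including the exons that are not floxed, so they check the labels only in part. All 7 markers of B cells were counted, with a summed level of 12569 to 12792 CPM (counts scaled to library size by the TMM method) in NSD1B WT and 11094 to 12085 in NSD1B KO. In the test given below, which called 37.1% of all tested genes higher and 41.1% lower, 5 of the 7 were lower and none higher. Pax5 had 279 and 342 counts in NSD1B WT and 30 and 31 in NSD1B KO, and Cd79a 14544 and 14192 against 5831 and 5166, so the sum, to which Cd79b added most, does not show the change of single markers. Cd4, Cd8a, Ncr1, Gzma, Ly6g, Elane, Mpo, Siglech and Sdc1, markers of other cell types, were at 0 in all libraries. Other genes of the same lists were counted, and of those tested 2 were higher and 1 lower for T cells, 2 higher and 1 lower for NK cells, 1 higher and 1 lower for neutrophils, 2 higher and 0 lower for plasmacytoid dendritic cells, and 1 higher and 2 lower for plasma cells. Their summed levels were 52.8 to 53.6 CPM in NSD1B WT and 59.2 to 64.7 CPM in NSD1B KO for T cells, 55.8 to 59.6 and 91.9 to 92.8 CPM for NK cells, 3.83 to 5.45 and 1.80 to 1.93 CPM for neutrophils, 140 to 141 and 211 to 219 CPM for plasmacytoid dendritic cells, and 216 to 231 and 169 to 174 CPM for plasma cells. The 6 markers of erythroid cells summed to 35.5 to 39.6 CPM in NSD1B WT and 1688 to 1942 CPM in NSD1B KO, the 5 markers of monocytes and macrophages to 4559 to 4664 and 5725 to 6073 CPM, and the 4 proliferation genes to 35.6 to 43.5 and 0 CPM. Of those tested, 5 were higher and 0 lower for erythroid cells, and 4 higher and 1 lower for monocytes and macrophages. All 4 proliferation genes were lower. Lyz2 held most of the monocyte and macrophage sum. Csf1r had 23 and 27 counts in NSD1B WT and 375 and 335 in NSD1B KO. Cd14 had 4 and 9 counts and then 71 and 77, while Itgam fell from 487 and 615 to 273 and 334. The part of these shifts in the HDAC values was not tested.

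In NSD1B KO, Hdac2 rose 3.33-fold, to a level per kilobase of exon that overlapped that of Hdac1. With the length of the principal transcript instead, Hdac2 stood above Hdac1 in both NSD1B KO libraries. Hdac10 and Hdac4 fell to 1 count each over both libraries, and Hdac1, Hdac3 and Hdac5 did not pass the threshold. Hdac8 and Hdac11 had no count in any library, Hdac6 had 1 count in all, and Hdac7 was too low to be tested. A gene was called changed where the fold change exceeded 1.2 and the adjusted p was below 0.05 in the quasi-likelihood test of edgeR, with the Benjamini-Hochberg adjustment over 11657 genes. By this rule 78.2% of all tested genes were called, 37.1% higher and 41.1% lower in NSD1B KO. So large a share limits what a call says about any 1 gene, since a called gene was in the majority. Of the tested genes, 1313 (11.3%) had 0 counts in both NSD1B KO libraries and 890 (7.63%) had 0 counts in both NSD1B WT libraries. What part of these differences follows from the loss of NSD1 was not tested. Of the 6 HDAC genes tested, 1 was higher, 2 were lower and 3 did not pass, and their median log2 fold change was -0.45, against -0.10 for all tested genes. The share of members called, 50%, lay below the background share. Hdac4 and Hdac10 passed the filter on low counts only through NSD1B WT, where they were high, so that these counts over the tested members carry no support of their own. The CPM of the genotypes did not overlap for any of the 6, as for 88.1% of all tested genes. In bulk RNA, fewer cells that express a gene and less RNA per cell cannot be told apart.

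Hdac1 and Hdac2 encode closely related proteins, so it was checked whether reads could be assigned to 1 or the other. In mm10 (GRCm38), Hdac1 spans 129516104 to 129542713 of chromosome 4 on the minus strand, and its principal transcript codes for 482 amino acids. Hdac2 spans 36974544 to 37001889 of chromosome 10 on the plus strand and codes for 488 amino acids. The coding sequences matched at 75.9% of 1441 aligned nt, with no identical run longer than 17 nt, and no stretch of 50 nt was shared between their transcripts. The 90 coding nt below, from nt 204 of the Hdac1 and nt 207 of the Hdac2 coding sequence in GENCODE M21, are centred on the longest identical run of the pair and are shown because they still hold 18 differences. Capitals mark the bases in which Hdac2 differs from Hdac1.
Hdac1: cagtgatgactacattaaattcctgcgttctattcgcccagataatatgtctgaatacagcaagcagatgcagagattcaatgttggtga
Hdac2: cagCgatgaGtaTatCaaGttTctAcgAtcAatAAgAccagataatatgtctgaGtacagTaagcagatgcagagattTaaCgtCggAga

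The processed pseudogene Hdac1-ps on chromosome 17 had the same 90 bases as Hdac1. It matched the Hdac1 coding sequence at 99.4% of 1444 nt and shared 31.7% of the 50-nt stretches of the Hdac1 transcripts, and 35.5% were shared with at least 1 other gene. Reads from these stretches could be set aside as not unique, a class that made up 11.2% to 13.2% of the counted reads. The level of Hdac1 is therefore uncertain against those of the other genes, since Hdac2 and Hdac3 shared no 50-nt stretch with any gene. Hdac1-ps itself had 7 and 10 counts in NSD1B WT and 3 and 4 in NSD1B KO.

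Hdac2, the class I enzyme that works beside HDAC1 in the NuRD, Sin3 and CoREST complexes, had 210 and 196 counts in NSD1B WT and 711 and 594 in NSD1B KO. Both NSD1B KO libraries lay far above both NSD1B WT libraries. The mean rose from 28.1 ± 1.82 to 93.4 ± 7.42 CPM (SD, n = 2), a log2 fold change of 1.74 (SE 0.11, edgeR adjusted p = 1.44e-18) and a fold change of 3.33 (95% CI 2.84 to 3.91). Among 2043 tested genes within 2-fold of its NSD1B KO level, 255 (12.5%) rose at least as much.

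Hdac1 itself had 442 and 436 counts in NSD1B WT and 488 and 463 in NSD1B KO. The libraries of the genotypes did not overlap in CPM, with means of 60.7 ± 1.56 and 68.2 ± 0.713 (SD, n = 2). The difference between them was small, with a log2 fold change of 0.17 (SE 0.10, 95% CI -0.04 to 0.38, edgeR adjusted p = 0.133), and the upper end of the interval is a 1.30-fold increase.

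Hdac3, the catalytic subunit of the NCoR corepressor complexes, lies on chromosome 18 and codes for 428 amino acids. It had 148 and 156 counts in NSD1B WT and 142 and 124 in NSD1B KO. The means were 21.0 ± 0.444 and 19.1 ± 0.918 CPM (SD, n = 2), and the NSD1B KO libraries were slightly the lower ones. The log2 fold change was -0.14 (SE 0.17, 95% CI -0.49 to 0.21, edgeR adjusted p = 0.464), an interval that runs from a fold change of 0.713 to 1.16.

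Hdac8, a class I enzyme that works outside the large corepressor complexes and acts on cohesin, lies on chromosome X and had 0 counts in all 4 libraries. A count of 0 over a genotype allows up to 3 counts, or 0.207 CPM in NSD1B WT and 0.215 CPM in NSD1B KO, a limit that covers counting error only.

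**Figure D1:**
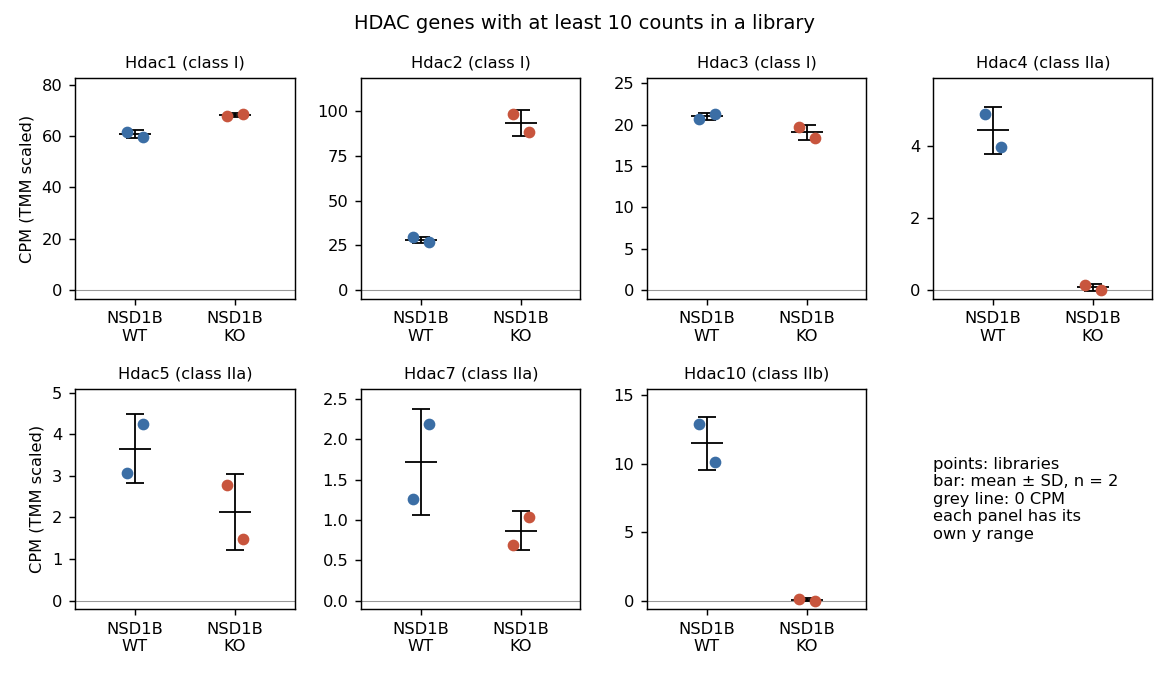
CPM after TMM scaling (y axis, a separate range in each panel) of the 7 HDAC genes with at least 10 counts in a library, by genotype (x axis). Points are libraries and bars the mean ± SD (n = 2). Hdac2 stands at 88.2 and 98.7 CPM in NSD1B KO against 26.8 and 29.4 in NSD1B WT, and the NSD1B KO points of Hdac4 and Hdac10 lie at or near 0.

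Among class IIa genes, whose products are bound by 14-3-3 proteins and held out of the nucleus when phosphorylated, Hdac4 showed the clearest change. Hdac4 spans 91928779 to 92195699 of chromosome 1 on the minus strand and codes for 1076 amino acids. It had 35 and 29 counts in NSD1B WT and 1 and 0 in NSD1B KO, so that the genotypes were far apart at a low level. Hdac4 fell from 4.43 ± 0.658 to 0.0694 ± 0.0981 CPM (SD, n = 2, edgeR adjusted p = 2.86e-09). With 1 count over NSD1B KO, the level in NSD1B WT was 61.6 times that in NSD1B KO, with a 95% counting interval of 10.7 to 2472. The fitted log2 fold change, which depends on the prior count, was -7.97 without NSD1B KO replicate 1, which held that count, and -4.82 without NSD1B KO replicate 2, and Hdac4 passed in both. Losses of this kind were common at this level. Of 2649 tested genes within 2-fold of the NSD1B WT level of Hdac4, 759 (28.7%) had at most 1 count over the NSD1B KO libraries. A lincRNA on the opposite strand, Gm26720, overlaps 22.4% of the Hdac4 exons, and the strand setting of the counting is not given in the sources used here, so reads of the pair may not be told apart.

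Hdac5, which shares 71.2% of 3105 aligned coding nt with Hdac4, had 22 and 31 counts in NSD1B WT and 20 and 10 in NSD1B KO. The genotypes lay close, at 3.08 and 4.24 CPM against 2.78 and 1.48 CPM. The log2 fold change was -0.77 (SE 0.42, 95% CI -1.60 to 0.07, n = 2 per genotype, edgeR adjusted p = 0.0882), and single libraries moved it. Without NSD1B KO replicate 1 the value was -1.29 (SE 0.59, edgeR adjusted p = 0.0390), which passed the threshold. Without NSD1B KO replicate 2 it was -0.39, without NSD1B WT replicate 2 it was -0.50, and after correction for exon length and GC content -0.33, none of which passed. The ratio of Hdac5 to Hdac4 counts was 0.629 and 1.07 in NSD1B WT and 20 in NSD1B KO replicate 1, and NSD1B KO replicate 2 had no Hdac4 count to set it against.

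Hdac7, the class IIa enzyme known for its roles in lymphocyte development, had 9 and 16 counts in NSD1B WT and 5 and 7 in NSD1B KO, and the filter on low counts left it out of the test. The NSD1B KO libraries were the lower ones, at 0.867 ± 0.244 against 1.72 ± 0.656 CPM (SD, n = 2). The ratio of the NSD1B KO to the NSD1B WT level was 0.498, with a 95% counting interval of 0.228 to 1.03, which includes no change.

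The class IIa gene Hdac9 is outside the 10 genes and was named after its values had been seen, because it had the most class IIa counts. It had 166 and 167 counts in NSD1B WT and 314 and 238 in NSD1B KO, and rose by 0.78 on the log2 scale (SE 0.15, n = 2 per genotype, edgeR adjusted p = 5.06e-06). The direction in class IIa thus differed by gene, with Hdac4 lower, Hdac9 higher, and Hdac5 not past the threshold.

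Of the class IIb genes, Hdac10 was clearly expressed in NSD1B WT and Hdac6 was not. HDAC10 is a cytoplasmic enzyme that acts on acetylated polyamines. Its gene spans 89123307 to 89128700 of chromosome 15 on the minus strand, with 20 exons in the principal transcript and a product of 666 amino acids. Hdac10 had 92 and 74 counts in NSD1B WT and 1 and 0 in NSD1B KO, a complete separation of the genotypes. The level fell from 11.5 ± 1.94 to 0.0694 ± 0.0981 CPM (SD, n = 2, edgeR adjusted p = 2.25e-14). The level in NSD1B WT was 160 times that in NSD1B KO, with a 95% counting interval of 28.3 to 6353. The fitted log2 fold change was -9.35 without NSD1B KO replicate 1, which held the count, and -6.20 without NSD1B KO replicate 2, and Hdac10 passed in both. Of 3450 tested genes within 2-fold of its NSD1B WT level, 663 (19.2%) likewise had at most 1 count over NSD1B KO.

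No exon of Hdac10 overlaps an exon of another gene and none of its 50-nt stretches occurs in another transcript, so shared reads do not enter its counts. Its closest neighbours had other patterns. Tubgcp6, a gamma-tubulin complex gene 194 bp away, had 110 and 124 counts in NSD1B WT and 149 and 137 in NSD1B KO, a log2 fold change of 0.34 (SE 0.18, edgeR adjusted p = 0.0794). Mapk12, a p38 kinase gene 1883 bp away on the other side, had 0 counts in both NSD1B WT libraries and 238 and 206 in NSD1B KO (edgeR adjusted p = 2.59e-22). Likeness of pattern to Hdac10 over the 4 libraries was measured by the distance between log2(CPM + 0.5) values centred on each gene's mean. Among tested genes with a mean log2 CPM within 1 of Hdac10, the nearest were 2310015A10Rik (distance 0.149), Gm10548 (0.254) and Rai1 (0.254). These genes had 140 to 166, 65 to 84 and 65 to 78 counts in NSD1B WT and at most 4, 0 and 0 in NSD1B KO.

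Hdac6, which encodes a cytoplasmic tubulin deacetylase, had 1 count in NSD1B WT replicate 1 and 0 in the other libraries. Hdac11, the single class IV gene, had 0 counts in all 4. Both lie at or under the limit that a count of 0 allows, so no fold change was computed for either gene. Exons of Hdac11 overlap Gm44002 over 594 bp and Gm14573 over 96 bp, both on the opposite strand.

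**Figure D2:**
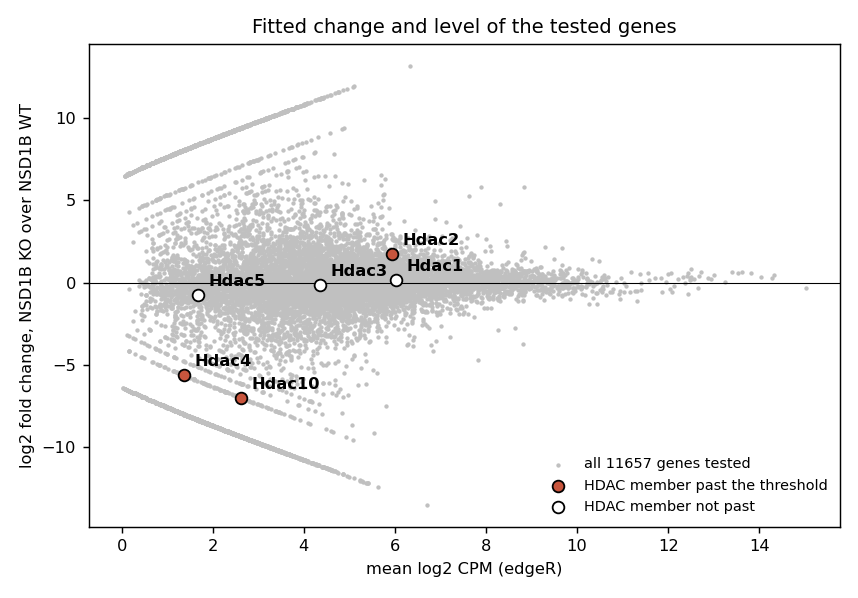
Log2 fold change of NSD1B KO over NSD1B WT (y axis) against the mean log2 CPM (x axis) from the edgeR fit, with the 11657 tested genes in grey and the 6 tested HDAC genes as large points, filled where past the threshold. Hdac4 and Hdac10 lie on a line of genes with 1 count over NSD1B KO, whose fitted values depend on the prior count, while Hdac1, Hdac3 and Hdac5 lie between -0.77 and 0.17.

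The level of each gene was next set per kilobase of annotated exon, since only this scale allows genes of different length to be compared. In NSD1B WT, Hdac1 stood highest at 17.6 ± 0.454 CPM per kb (SD, n = 2). Hdac2 followed at 6.27 ± 0.407, Hdac3 at 5.18 ± 0.109 and Hdac10 at 3.40 ± 0.575 CPM per kb, and no neighbours among these overlapped. Hdac5 stood at 0.416 ± 0.0935 CPM per kb, above Hdac4 at 0.280 ± 0.0416 and Hdac7 at 0.255 ± 0.0972, and the ranges of Hdac4 and Hdac7 overlapped. In NSD1B KO, Hdac2 at 20.9 ± 1.66 and Hdac1 at 19.8 ± 0.207 CPM per kb could not be placed in order, because their ranges overlapped. Hdac3 came next at 4.70 ± 0.227 CPM per kb, then Hdac5 at 0.243 ± 0.104 and Hdac7 at 0.128 ± 0.0361. Hdac10 and Hdac4 dropped to the end of the counted genes. The overlap of Hdac2 and Hdac1 depended on the length used. With the length of the principal transcript, chosen after the data were seen, their shares of the summed level in NSD1B KO did not overlap. Hdac2 held 52.9% and 50.3% and Hdac1 35.7% and 38.6%.

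Ratios within a library do not depend on the scaling between libraries. Hdac2 per kb was 0.366 and 0.346 times Hdac1 in NSD1B WT and 1.12 and 0.988 times Hdac1 in NSD1B KO. Against Hdac3, it was 1.29 and 1.14 times in NSD1B WT and 4.54 and 4.34 times in NSD1B KO. The ratio of Hdac3 to Hdac1 moved less, from 0.285 and 0.304 to 0.247 and 0.228. These ratios are given as a description, and no test was run on them.

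Class I genes held 86.4% and 87.6% of the summed CPM per kb of the 10 genes in NSD1B WT and 99.0% and 99.3% in NSD1B KO. Hdac2 alone went from 19.1% and 18.4% to 46.9% and 44.3%, and Hdac1 from 52.3% and 53.1% to 41.8% and 44.8%. The summed level was 34.3 and 32.6 CPM per kb in NSD1B WT and 47.1 and 44.5 in NSD1B KO. For Hdac1, a lower share was therefore not a lower level. The share of class IIb was 11.2% and 9.18% in NSD1B WT and 0.0873% and 0% in NSD1B KO, and nearly all of it was Hdac10. Class IIa held 2.47% and 3.24% in NSD1B WT and 0.909% and 0.725% in NSD1B KO. With Hdac9 added, an alternative chosen after the data were seen, class IIa held 6.77% and 7.65% in NSD1B WT and 6.80% and 5.82% in NSD1B KO, so that the lower class IIa share depends on leaving that gene out.

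**Figure D3:**
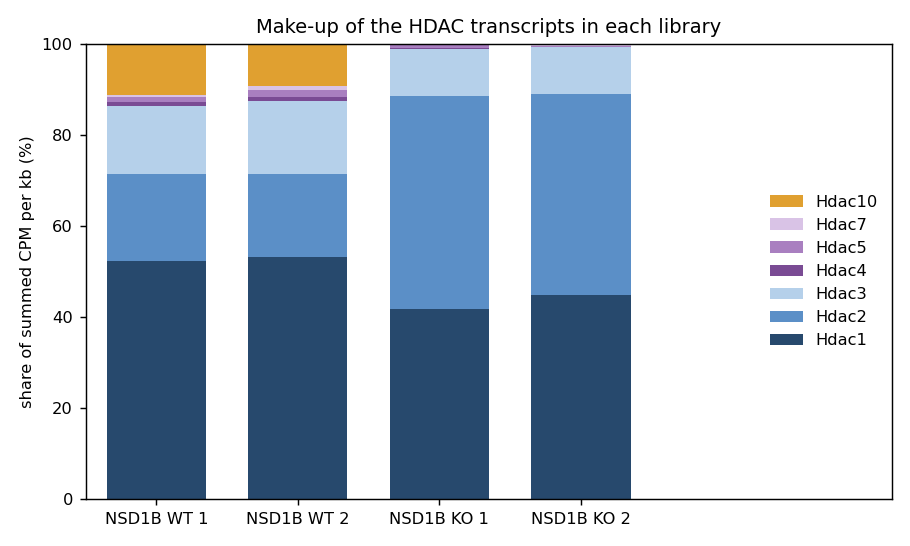
Share of the summed CPM per kb of the HDAC genes (y axis, percent) held by each gene in each library (x axis, 2 NSD1B WT and 2 NSD1B KO). Hdac2 takes 18.4% and 19.1% in NSD1B WT and 44.3% and 46.9% in NSD1B KO, and Hdac10 is visible only in NSD1B WT.

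The 250 bases upstream of the annotated start were read from a table of RefSeq starts (GRCm38.p6), and 7 of the 10 genes matched by symbol in that table. Hdac1, Hdac3 and Hdac10 were not analysed here. Those of Hdac2 and Hdac4 are shown because these matched genes passed the threshold, in opposite directions. Capitals mark GC boxes (GGGCGG) and CCAAT boxes (CCAAT), searched on both strands. The Hdac2 sequence is chr10:36974294-36974543 on the plus strand and the Hdac4 sequence chr1:92180342-92180591 on the minus strand. The Hdac4 window lies upstream of its principal transcript but inside the gene span given above, so the annotated gene begins further upstream.
Hdac2: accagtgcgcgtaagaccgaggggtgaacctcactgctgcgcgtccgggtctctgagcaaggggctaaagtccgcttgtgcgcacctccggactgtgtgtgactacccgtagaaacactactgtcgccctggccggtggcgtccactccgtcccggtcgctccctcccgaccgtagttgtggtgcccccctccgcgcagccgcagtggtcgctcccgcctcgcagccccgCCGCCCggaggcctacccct
Hdac4: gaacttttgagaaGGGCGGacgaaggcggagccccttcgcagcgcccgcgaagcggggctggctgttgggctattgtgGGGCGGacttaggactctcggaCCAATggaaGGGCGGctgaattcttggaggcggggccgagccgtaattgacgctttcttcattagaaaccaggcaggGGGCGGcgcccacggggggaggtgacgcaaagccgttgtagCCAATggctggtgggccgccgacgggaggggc

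The Hdac2 window held 27 CpG and a GC content of 68.8%, with 1 GC box and no CCAAT box. The Hdac4 window held 23 CpG and a GC content of 65.2%, with 4 GC boxes and 2 CCAAT boxes. Among 32851 windows of the same length, the median was 6 CpG and a GC content of 52.4%, and 32.7% held a GC box and 33.9% a CCAAT box. The window of Hdac6, which had 1 count in all, also held 4 GC boxes and 2 CCAAT boxes.

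Genes that work with the deacetylases were described by lists, of which 83 of 85 symbols were in the files and 72 genes were tested. Of these, 26 were higher, 26 were lower and 20 did not pass in NSD1B KO, a share of 72.2% against the 78.2% of all tested genes. Their median log2 fold change was -0.15, against -0.10 for all. The calls were thus evenly split between the directions over all lists.

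NuRD joins HDAC1 and HDAC2 to a nucleosome remodelling ATPase. Of its 10 tested genes, 2 were higher and 6 lower (median log2 fold change -0.55). Chd4, which encodes such an ATPase, fell by 1.74 on the log2 scale (SE 0.15, edgeR adjusted p = 1.58e-14), from 49.1 to 14.7 CPM. The scaffold gene Gatad2b fell by 1.50 as well, while Cdk2ap1 rose by 1.15 and Mta3 by 0.68. Rbbp4, a histone-binding subunit that NuRD shares with Sin3, had a log2 fold change of -0.12 and did not pass. Rbbp7, of the same list, fell by 0.64, from 324 to 208 CPM.

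Sin3 complexes also carry HDAC1 and HDAC2. Of 14 tested genes, 6 were higher and 3 lower (median -0.20). The scaffold gene Sin3a fell by 1.51 on the log2 scale (SE 0.21), from 23.3 to 8.19 CPM, while its paralogue Sin3b rose by 0.92. The DNA-binding subunits were divided in the same way, with Arid4b higher by 1.72 and Arid4a lower by 0.66. Brms1l had 2 and 1 counts in NSD1B WT and 185 and 202 in NSD1B KO, a ratio of 134 with a 95% counting interval of 45.5 to 652.

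CoREST pairs HDAC1 and HDAC2 with the demethylase LSD1, the product of Kdm1a. Of 7 tested genes, 1 was higher and 3 lower (median -0.25). Phf21a, which encodes a reader of unmethylated H3K4, had 32 and 54 counts in NSD1B WT and 0 in NSD1B KO, at least 27.6-fold lower. Zmym3 had 29 and 34 counts and then 0, at least 20.2-fold lower, while Zmym2 rose by 0.49, a call that was lost after correction for exon length and GC content (0.18, edgeR adjusted p = 0.122). Rcor1, the CoREST scaffold, fell by 2.84, and Kdm1a had a log2 fold change of 0.14 and did not pass. Sin3b, Rbbp4, Rbbp7, Rcor1 and Kdm1a were named after their values were seen, as the paralogue or the core subunits of their complexes.

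The NCoR complexes carry HDAC3. Of 5 tested genes, 1 was higher and 2 lower (median 0.07). Ncor1, which encodes a scaffold of these complexes, fell by 0.30 on the log2 scale, a call that was lost in 3 of 13 alternatives, and Gps2 rose by 1.25.

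In the MiDAC and MIER complexes, further homes of HDAC1 and HDAC2, 2 of 4 tested genes were higher and 1 lower (median 0.54). Mier1 rose by 1.25 and Mier3 by 1.51 on the log2 scale, and Elmsan1, the MiDAC scaffold, fell by 0.51, a call lost in 5 of 13 alternatives.

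Partners of the class IIa enzymes counted 12 tested genes, 6 higher and 3 lower (median 0.17). Among the MEF2 factors that class IIa enzymes bind, Mef2a rose by 1.54 on the log2 scale and Mef2c by 0.91. Mef2d had a log2 fold change of 0.07 and did not pass. The kinases that phosphorylate these enzymes were divided, with Prkd3 higher by 1.43 and Prkd2 lower by 1.23. The 14-3-3 genes were divided too. Ywhag fell by 0.69 and Ywhae by 0.34, while Ywhah rose by 1.42, Ywhaq by 0.71 and Ywhab by 0.26. Ywhaz and Sfn did not pass, with log2 fold changes of -0.17 and -0.15. Mef2c, Mef2d and the 14-3-3 genes other than Ywhag were named after their values were seen.

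The sirtuins, NAD-dependent deacetylases of class III, had 3 higher and 2 lower of 5 tested genes (median 0.54). Sirt2 rose by 0.92 and Sirt3 by 0.87 on the log2 scale. Sirt6, a nuclear enzyme acting on histone H3, had 123 and 183 counts in NSD1B WT and 8 and 5 in NSD1B KO, and fell by 4.48. Sirt7 fell by 2.19.

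The histone acetyltransferases, which act opposite to the deacetylases, had 4 higher and 3 lower of 11 tested genes (median -0.14). Kat2a, which encodes GCN5, rose by 3.34 on the log2 scale, from 0.550 to 5.74 CPM, and Kat6a by 2.30. Kat5, which encodes TIP60, fell by 1.97, and Kat7 by 1.52. Among the 4 genes of BET proteins, readers of acetylated lysine, 1 was higher and 3 lower (median -0.85). Brdt had 50 and 26 counts in NSD1B WT and 0 in NSD1B KO (at least 24.4-fold lower), and Brd3 rose by 0.81, a call lost in 7 of 13 alternatives.

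**Figure D4:**
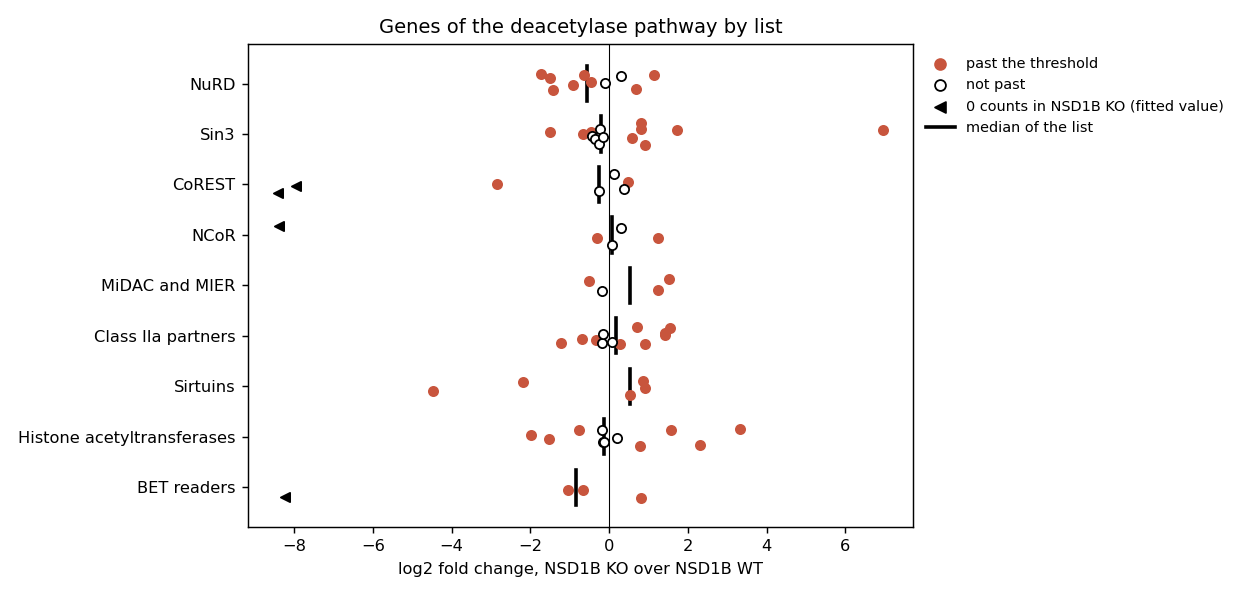
Log2 fold change of NSD1B KO over NSD1B WT (x axis) for the 72 tested genes by list (y axis), from the edgeR fit. Red points passed the threshold, open points did not, triangles had 0 counts in NSD1B KO, and bars are list medians, which run from -0.85 to 0.54.

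Among the nearest protein-coding genes that do not overlap an HDAC gene, those tested were lower, higher or not past the threshold. Ndufa10, 243310 bp from Hdac4, had 609 and 563 counts in NSD1B WT and 284 and 214 in NSD1B KO, and fell as Hdac4 did. Rapgef3, 24691 bp from Hdac7, fell from 35 and 36 to 7 and 17 counts, while Hdac7 was not tested. Slc48a1, which overlaps Hdac7 over 29 exon bp on the opposite strand, was not among the neighbours considered. Lck, 5630 bp from Hdac1, fell from 32 and 42 to 3 and 4 counts, and Diaph1, 367 bp from Hdac3, fell by 0.43 on the log2 scale. G6pc3, 350 bp from Hdac5, had 154 and 115 counts in NSD1B WT and 0 in NSD1B KO, while Hdac5 did not pass. Rell2, 62 bp from Hdac3, had 0 counts in NSD1B WT and 42 and 33 in NSD1B KO, while Hdac3 did not pass. Phka1, 8615 bp from Hdac8, had 55 and 71 counts in NSD1B WT and 0 in NSD1B KO, while Hdac8 had none in either genotype. Marcks, 131485 bp from Hdac2, had a log2 fold change of 0.07 (SE 0.12, edgeR adjusted p = 0.613) beside the rise of Hdac2. These neighbours were named by position, and no relation between neighbours was tested.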

How the data were processed

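B220+ splenic B cells of both genotypes were sequenced as paired-end reads. Per the labels and methods, the authors mapped reads to mm10 with Bowtie2. The deposited values are raw counts, 1 for each gene in each library, neither normalized nor scaled by length. FPKM from Cufflinks, named in the methods, were not used here. Which program counted the reads, with which annotation release and strand setting, is not given in the sources used here. Reads on no gene made up 44.3% to 44.6% and ambiguous reads 2.21% to 2.41% of the counted reads. These classes, which name no gene, were left out of library sizes and tests.

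Groups were taken from the labels. Libraries of a genotype differed by more than sampling noise (mean chi-square per gene 3.02 in NSD1B WT and 3.90 in NSD1B KO). Counts were scaled by TMM (factors 0.952 to 1.03) and tested with the quasi-likelihood test of edgeR 4.0.16 in R 4.3.3 after filterByExpr (minimum count 10, minimum total 15). The coefficient of variation between libraries was 0.0735. Standard errors were taken from the fold change and the F statistic. GENCODE M21 gave positions, exon lengths and transcripts (55141 of 55401 identifiers matched, 10 of 10 members). The 10 genes, the lists and the tests were chosen with earlier results of these data known. By rule, the text names the 10 members, Nsd1, and the 2 highest and 2 lowest called genes of each list. It also names list genes at 0 in 1 genotype with at least 50 counts over the other. Added to these were the 3 genes of like level nearest in pattern to the member with the largest called change. Alternatives were other scalings, filters and thresholds, DESeq2 1.42.0, limma-voom (limma 3.58.1), a replicate block, a length and GC trend removed (loess, span 0.5), and each library left out. Some genes that the rule would name are not reported here. The procedure was tested on simulated data.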

Additional observations from a re-analysis of the deposited data

How the results depend on the processing

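The Hdac2 log2 fold change stayed between 1.48 and 1.83 over 13 alternatives, and those of Hdac1 (0.09 to 0.23) and Hdac3 (-0.22 to -0.09) passed in none of them. Hdac4 and Hdac10 passed in all 12 alternatives that tested them, which reuse the same counts and so give no support of their own. Requiring at least 1 CPM in all 4 libraries, which tested 8334 genes, removed both, so that 0 members were lower, and called 2855 genes higher and 2991 lower, against 4323 and 4795. The stricter threshold (adjusted p below 1e-05, absolute log2 fold change above 0.5) left 17 list genes higher and 18 lower, against 26 for each.

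Each library left out in turn gave 4122 to 4341 genes higher, 4356 to 4936 lower and 2 to 3 members lower, and 23 to 26 list genes higher and 24 to 28 lower. The lone library of a genotype was then assumed to vary like the other genotype. The class I share, 87.0% in NSD1B WT and 99.1% in NSD1B KO, became 83.7% and 98.3% without length correction and 83.1% and 93.7% with Hdac9 added. With the length of the principal transcript it became 89.1% in NSD1B WT. The last 2 choices were made after the data were seen.

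The labels do not tie same-numbered libraries together, and their deviations from the genotype means correlated at 0.0645. With the replicate block, 4254 genes were higher and 4706 lower, the numbers of members called stayed at 1 and 2, and 24 and 26 list genes were called. The median log2 fold change of all genes stayed between -0.18 and -0.10 under the scalings tried. The depth of 6769118 to 7566834 counts does not resolve genes below about 0.2 CPM, such as Hdac6, Hdac8 and Hdac11.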
